A study of Mus musculus with 6 samples.

Results

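Myosin is the motor of the cardiac sarcomere, and the genes described here encode its heavy chains, its light chains and the kinase of the ventricular regulatory light chain. The 9 genes were chosen by name: Myh6, Myh7, Myh7b, Myl1, Myl2, Myl3, Myl4, Myl7 and Mylk3. Every probe annotated to them on the Illumina bead arrays was taken, which gave 12 probes of 8 genes among 25696 probes, with 16593 genes named in all. Myh7b was not analysed here, as no probe was annotated to it. Of the 12 probes, 10 probes of 7 genes passed the filter on dim probes, a detection p-value below 0.05 on at least 3 of the 6 arrays. The Myl7 probe and the second Myl1 probe did not pass and were not fitted, and their values are given as a description.

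Heart RNA came from 3 knockout mice with the genotype Nelf-b f/f; CreER and from 3 control mice with the genotype Nelf-b f/f. Nelfb encodes a subunit of NELF, the negative elongation factor, which keeps RNA polymerase II paused shortly after it starts a transcript. All 6 mice were C57BL/6J females. Both groups were given tamoxifen at 8 weeks and kept on regular chow, and hearts were taken at 20 weeks after a fast of 5 hours. Each heart was read on 1 array. CreER is a Cre recombinase fused to a receptor domain that tamoxifen activates. The sources used here do not give the promoter that drives it, and hence the cell types that recombined. The controls lacked CreER, so the presence of the recombinase and the loss of the gene cannot be told apart. Whether atria were taken with the ventricles is not given either.

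The sign of every difference rests on the sample records. In the table of intensities that were not normalized, each of the 6 column headers carries the other group name with the same replicate number. This was found by rank order over all probes, in which every column had a Spearman rho of 1 with its matching record and at most 0.854 with any other. With the header names all signs turn. By the records, both Nelfb probes were lower in knockout hearts, with log2 differences of -1.61 ± 0.13 SE and -0.94 ± 0.14 SE (limma, adjusted p = 0.000240 and 0.00406). The mean intensity per array before normalization ran from 208.0 to 259.9 in knockouts and from 169.8 to 310.3 in controls. Between 38.8% and 40.3% of probes were detected on knockout arrays, and between 40.3% and 43.8% on control arrays. Control array 1 had a score of 22.4 on the second principal component, where the remaining arrays scored from -9.86 to 1.76. The signal of 10 cardiomyocyte marker genes, summed per array on the linear scale, was 100696 to 101894 in knockout hearts and 97495 to 102276 in control hearts. The brightest of these genes, Tnnc1, Actc1 and Mb, lay near the top of the signal range. Quantile normalization gives arrays with the same rank there the same value, so near-equal sums do not show equal cardiomyocyte content.

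Each myosin molecule holds a pair of heavy chains, with the motor, and on each of them an essential and a regulatory light chain. The adult mouse ventricle uses the alpha heavy chain of Myh6 with the light chains of Myl2 and Myl3, while the beta heavy chain of Myh7 is the fetal form in mouse ventricle and returns under load or low thyroid hormone. Atrial muscle uses Myl4 as essential and Myl7 as regulatory light chain, and Myl4 is also made in the fetal ventricle. Myl1 encodes the essential light chain of fast skeletal muscle, and Mylk3 the kinase that phosphorylates the Myl2 product.

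Of the 10 tested probes 1 was called, that of Myl1, which was lower in all 3 knockout hearts. Calls rest on limma with a Benjamini-Hochberg adjusted p below 0.05 over all 10407 tested probes, of which 3.8% were called, 1.92% higher and 1.87% lower. The groups did not overlap for the same Myl1 probe alone among the 10, while 24.3% of all tested probes had groups that did not overlap. The median log2 difference of the 10 probes was 0.11, against 0.0052 over all tested probes. Values are log2 intensities after background correction and quantile normalization. They are compared between arrays for 1 probe at a time, since probes differ in how brightly they hybridise. A lower signal in whole-heart RNA can come from fewer cells that make a transcript or from less transcript per cell, which cannot be told apart here.

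**Figure D1:**
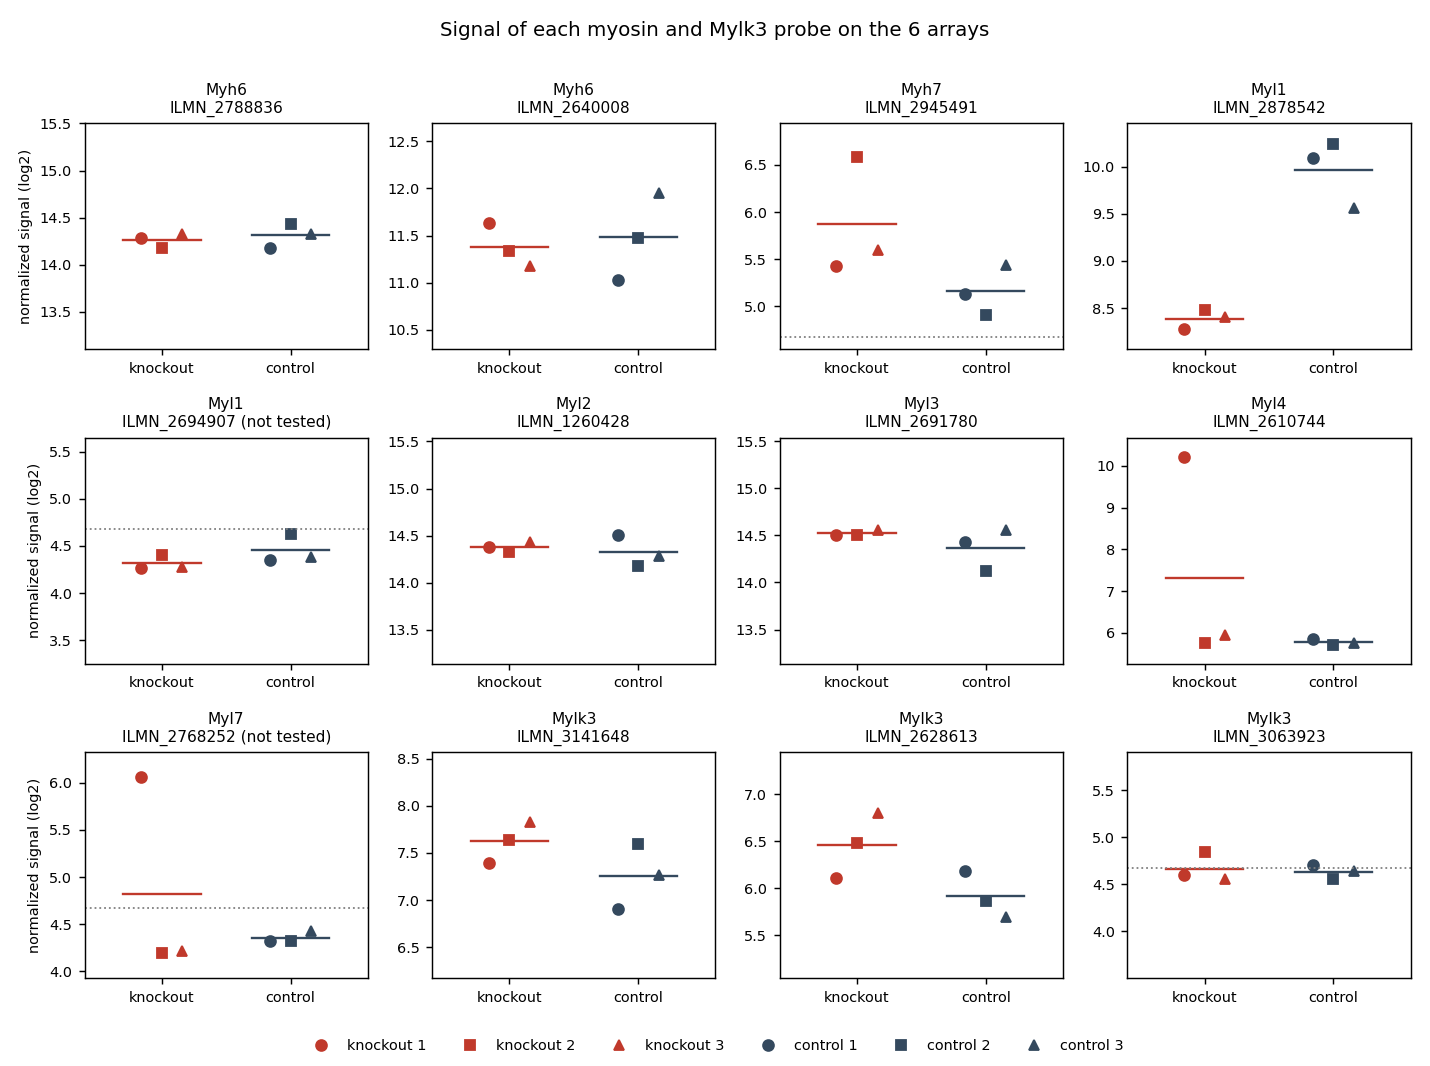
Normalized signal (log2, vertical axes with their own ranges) of the 12 probes on the 3 knockout arrays (red, left) and the 3 control arrays (dark, right), with horizontal bars at the group means and symbols for the replicate number. The dotted grey line, where in range, marks 4.68, the highest of the 6 arrays' lowest detected signals. Myl1 separates the groups, and Myl4 and Myl7 each have 1 knockout array far above the other 5 arrays.

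The alpha heavy chain gene Myh6 had a probe near the top of the signal range and a dimmer one, and neither was called. The brighter probe was 14.28, 14.17 and 14.33 in knockout hearts, against 14.17, 14.43 and 14.33 in control hearts. The groups overlapped, with a log2 difference of -0.05 ± 0.14 SE (95% interval -0.36 to 0.26, limma adjusted p = 0.880). This probe was among the 13 brightest of all 25696 probes on every array, where quantile normalization gives arrays with the same rank the same value. Before normalization it read 21267, 19127 and 19171 in knockout hearts and 18064, 26119 and 16653 in control hearts. The dimmer probe had more room on the scale and was 11.63, 11.34 and 11.18 in knockout hearts, against 11.03, 11.48 and 11.96 in control hearts. Its controls spread more widely than its knockouts and enclosed them, and the difference was -0.11 ± 0.22 SE (95% interval -0.58 to 0.37, limma adjusted p = 0.834).

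The beta heavy chain gene Myh7 was highest on knockout array 2. It was 5.43, 6.58 and 5.60 in knockout hearts, against 5.13, 4.90 and 5.44 in control hearts. The groups overlapped, because knockout array 1 lay below control array 3. The log2 difference was 0.71 ± 0.26 SE, or 1.64-fold, and was not called (limma adjusted p = 0.162, unadjusted p = 0.0197). Its raw intensities of 126, 176 and 111 in knockout hearts and 108, 120 and 90.0 in control hearts were low, although the probe was detected on all 6 arrays. The ratio of Myh7 to the brighter Myh6 probe, read only as a change between groups, was 0.76 higher in knockout hearts on the log2 scale. The groups of this ratio did not overlap, but the margin was narrow, at -8.85 on knockout array 1 against -8.88 on control array 3. Myh7 itself overlapped at these arrays, so the separation rests on the Myh6 probe, at 14.28 and 14.33 there. The ratio gave an exact 2-sided permutation p of 0.1, the smallest that 3 against 3 arrays allow (adjusted p = 0.2 over the 4 ratios tested). The difference of this ratio was 0.36 without knockout array 2 and 0.33 without background correction.

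The genes Myh6, Myh7 and Myh7b each host a microRNA of the heart on their own strand, and the mature sequences are shown to compare their seeds. The arrays were not read for these microRNAs here. Sequences are from RefSeq (GRCm38.p6), 5′ to 3′, with the seed at bases 2 to 8 in capitals. miR-208a-3p lies within Myh6 at chr14:54949072-54949093 on the minus strand, miR-208b-3p within Myh7 at chr14:54975710-54975731 on the minus strand, and miR-499-5p within Myh7b at chr2:155622893-155622913 on the plus strand.
miR-208a-3p: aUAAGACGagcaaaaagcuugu
miR-208b-3p: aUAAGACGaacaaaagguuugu
miR-499-5p: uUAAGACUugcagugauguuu
miR-208a-3p and miR-208b-3p share the seed UAAGACG, while the seed of miR-499-5p is UAAGACU.

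The genes whose pattern over the 6 arrays was most like that of Myh7 included the natriuretic peptide gene Nppb, a marker of wall stress. Among 702 tested genes with a range of at least 1 on the log2 scale, the 5 highest Pearson correlations were those of Pepd (0.992), Rrp12 (0.991), Nppb (0.983), Klhl34 (0.959) and Timp1 (0.958). These describe 6 arrays on which knockout array 2 is the highest for every one of them. Nppb was 12.08, 13.22 and 12.38 in knockout hearts and 11.98, 11.83 and 12.06 in control hearts. Ranked by how far knockout array 2 exceeded the highest of the other 5 arrays, Myh7 had an excess of 0.99, behind 3 genes. These were Nlrc3 (1.78), the atrial natriuretic peptide gene Nppa (1.43) and Uck2 (1.13), a uridine-cytidine kinase. Behind Myh7 came the matricellular gene Ccn2 (0.92), the growth factor gene Hbegf (0.87), Nppb (0.85) and Csrnp2 (0.81). The part of knockout array 2 in the Myh7 difference is given by the value without it, 0.35.

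Of 7 genes tested in a list named fetal and stress isoforms, Acta1 and Uck2 rose and Acta2 fell. The list median was 0.37, against 0.0064 over all 7579 genes tested, of which 3.87% were called, 2.02% higher and 1.85% lower. Uck2, a kinase gene, is not an isoform, and the list was chosen with earlier results of these data known. The calls and the median of the list are therefore a description and not independent support. Acta1, the skeletal actin, was 13.39, 14.12 and 13.74 in knockout hearts, against 10.78, 11.28 and 11.15 in control hearts, so its groups lay far apart on every array (2.68 ± 0.20 SE, limma adjusted p = 0.000170). Uck2 rose by 1.64 ± 0.29 SE (limma adjusted p = 0.00960). Acta2, the smooth muscle actin, fell by 0.84 ± 0.18 SE (limma adjusted p = 0.0291). Tnnt1, the slow skeletal troponin T, rose by 0.79 ± 0.20 SE (limma adjusted p = 0.0476) and was the 1 gene called of 2 tested in the slow skeletal list, whose median was 0.51.

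**Figure D2:**
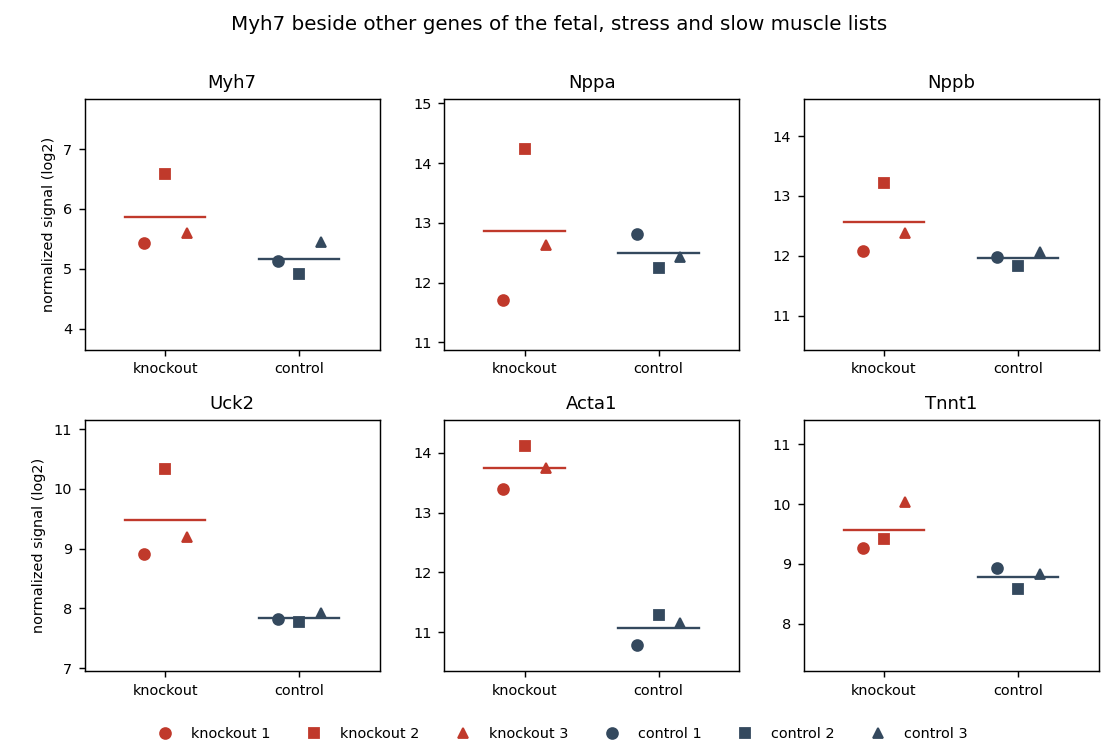
Normalized signal (log2, each vertical axis spanning the same width) of Myh7, Nppa, Nppb, Uck2, Acta1 and Tnnt1 on the 3 knockout arrays (red, left) and the 3 control arrays (dark, right), with bars at the group means and symbols for the replicate number. Knockout array 2 is the highest point for Myh7, Nppa, Nppb, Uck2 and Acta1, while the groups do not overlap for Nppb, Acta1, Uck2 and Tnnt1.

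The ventricular light chain genes Myl2 and Myl3 were not called. Myl2, the ventricular regulatory light chain, was 14.38, 14.33 and 14.43 in knockout hearts, against 14.51, 14.17 and 14.28 in control hearts. The knockout values fell inside the range of the controls, with a difference of 0.06 ± 0.14 SE (95% interval -0.26 to 0.37, limma adjusted p = 0.862). Myl3, the ventricular essential light chain, was 14.51, 14.51 and 14.56 in knockout hearts, against 14.43, 14.12 and 14.56 in control hearts. Control array 2 was its lowest value, and the difference was 0.15 ± 0.15 SE (95% interval -0.18 to 0.49, limma adjusted p = 0.629). Both probes ranked among the 14 brightest of the array in every heart. Their raw intensities ran from 20521 to 22706 for Myl2 and from 23208 to 24189 for Myl3 in knockout hearts, and from 15870 to 24282 and from 17505 to 23777 in control hearts.

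Both atrial light chain genes stood out on knockout array 1 and on no other. Myl4 was 10.23, 5.75 and 5.95 in knockout hearts, against 5.86, 5.71 and 5.77 in control hearts. Knockout array 1 lay 4.28 above the next array, the largest such excess among the 7579 tested genes on that array, and the other 5 arrays lay between 5.71 and 5.95. In raw intensity the probe read 1421, 132 and 121 in knockout hearts and 128, 157 and 96.9 in control hearts. The log2 difference of 1.53 ± 0.86 SE was not called (limma adjusted p = 0.355). Without knockout array 1 it was 0.07 (limma adjusted p = 0.864).

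Myl7, the atrial regulatory light chain, was detected on knockout array 1 alone and so was not tested. It was 6.06, 4.19 and 4.21 in knockout hearts, against 4.32, 4.32 and 4.43 in control hearts. The value on knockout array 1 was 1.63 above the next array, and the other 5 were not detected. The ratio of Myl4 to Myl3 had an exact 2-sided permutation p of 0.8 between groups of 3 (adjusted p = 0.9 over 4 ratios). The ratio of Myl7 to Myl2 was counted among the 4 in the adjustment, but is not read here because Myl7 was at background on 5 arrays.

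The same array was high for a few other atrial genes but not for most. Among 7626 genes detected on knockout array 1, exactly 4 exceeded the other 5 arrays by more than 1 on the log2 scale. They were Myl4, the sarcolipin gene Sln (2.48), Myl7 and Mybphl (1.59), a relative of myosin-binding protein C. Sln, a regulator of the sarcoplasmic reticulum calcium pump in atria, was 6.89, 4.21 and 4.30 in knockout hearts and 4.41, 4.33 and 4.25 in control hearts. Mybphl was 6.28, 4.45 and 4.56 in knockout hearts and 4.41, 4.49 and 4.70 in control hearts. Dkk3, a secreted glycoprotein gene, was 7.27, 6.37 and 5.21 in knockout hearts and 5.69, 5.31 and 5.53 in control hearts, so knockout array 2 was raised as well. Among the tested genes alone, the next in this ranking after Myl4 were Dct (0.94), Dkk3 (0.90), Slc4a1 (0.77), Sv2a (0.76), Snx30 (0.70), Egr1 (0.69) and Nkapd1 (0.67).

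Of the 14 atrial markers with a probe, 5 were highest on knockout array 1, 2 on knockout array 2, 3 on knockout array 3, 0 on control array 1 and 2 each on control arrays 2 and 3. Nppa went the other way on knockout array 1: it was 11.71, 14.24 and 12.64 in knockout hearts and 12.81, 12.24 and 12.43 in control hearts. The atrial factor gene Bmp10 and the channel gene Kcnj5 were not detected on any array. The signal of the whole list, summed on the linear scale, was 3963, 19719 and 6714 in knockout hearts and 7521, 5232 and 5884 in control hearts, and Nppa dominated it. Without Nppa, likewise chosen after the values were seen, the sum was 628, 373 and 368 in knockout hearts and 368, 412 and 390 in control hearts. Of the 10 list members tested, 0 were called by limma at the adjusted threshold and 1, Stard10, had an unadjusted p below 0.05 (-0.64 ± 0.20 SE, unadjusted p = 0.00773, adjusted p = 0.103). The second smallest p of the list was that of Dkk3 (0.78 ± 0.38 SE, adjusted p = 0.280), and the list median was 0.12. An unadjusted p below 0.05 was common over all tested probes, so that of Stard10 is a description. Genes of erythrocytes were also uneven between hearts, and their summed signal of 16646, 5904 and 10964 in knockouts, against 7039, 10208 and 1536 in controls, was highest on knockout array 1. The part of these markers in the Myl4 and Myl7 values was not tested.

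**Figure D3:**
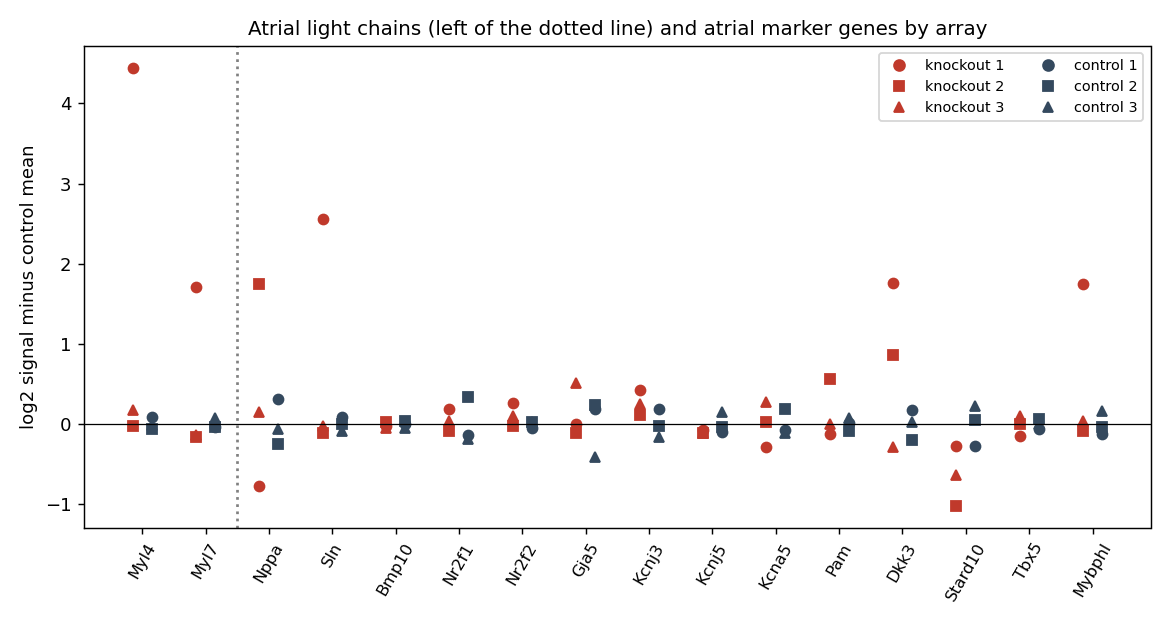
Log2 signal minus the mean of the 3 control arrays (vertical axis) for the atrial light chain genes Myl4 and Myl7 and for 14 atrial marker genes, with knockout arrays in red to the left and control arrays in dark to the right of each gene and symbols for the replicate number. Knockout array 1 is 4.45 above the control mean for Myl4, 1.71 for Myl7, 2.56 for Sln and 1.75 for Mybphl, and 0.78 below it for Nppa (-0.78).

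The windows before the listed starts of Myl4 and Myl7 are shown because these genes stood out on the same array. Sequences of 250 bases are from RefSeq (GRCm38.p6), 5′ to 3′ in the direction of transcription. The Myl4 window is chr11:104550413-104550662 on the plus strand and the Myl7 window chr11:5898783-5899032 on the minus strand. Capitals mark matches to GATA motifs (AGATAA on either strand, likewise the variant AGATAG, likewise the variant TGATAA and likewise the variant TGATAG), M-CAT motifs (CATTCC on either strand), MEF2 and CArG motifs by name on either strand, a TATA box (TATAAA) or an E box (CAGCTG).
Myl4: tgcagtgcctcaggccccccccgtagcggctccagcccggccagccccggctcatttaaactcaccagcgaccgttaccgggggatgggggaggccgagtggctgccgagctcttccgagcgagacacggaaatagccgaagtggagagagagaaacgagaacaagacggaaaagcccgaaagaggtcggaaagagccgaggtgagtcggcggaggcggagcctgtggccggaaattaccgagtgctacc
Myl7: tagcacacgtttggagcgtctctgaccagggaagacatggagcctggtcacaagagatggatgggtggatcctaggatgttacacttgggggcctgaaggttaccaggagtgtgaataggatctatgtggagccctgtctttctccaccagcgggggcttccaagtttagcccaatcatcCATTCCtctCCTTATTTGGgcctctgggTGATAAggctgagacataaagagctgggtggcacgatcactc
The Myl7 window held an M-CAT, a CArG and a GATA match in this order, with no overlap. The Myl4 window held none of the 6 motifs. It lies inside the annotated span of the gene, which begins at chr11:104546017, so it does not stand for a start further upstream. Among 32851 windows of the same length, 12.6% held an M-CAT, 1.47% a CArG, 26.5% a GATA, 2.92% a MEF2, 7.59% a TATA box and 13% an E box match. These matches describe letters only.

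The brighter probe of Myl1, the fast skeletal essential light chain gene, fell in knockout hearts. It was 8.28, 8.48 and 8.40 in knockout hearts, against 10.10, 10.24 and 9.57 in control hearts. All knockout values lay below all control values, and the knockouts lay closer together than the controls. The log2 difference was -1.58 ± 0.18 SE (95% interval -1.98 to -1.19), or 2.99-fold lower (limma adjusted p = 0.000880). Raw intensities were 434, 448 and 332 in knockout hearts and 1071, 1829 and 534 in control hearts. Group means were 8.39 ± 0.10 in knockout hearts and 9.97 ± 0.36 in control hearts (SD, n = 3 each).

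The ratio of Myl1 to Myl3 had a log2 difference of -1.74 between knockout and control hearts, with groups that did not overlap and an exact 2-sided permutation p of 0.1, the smallest possible (adjusted p = 0.2 over the 4 ratios). The second Myl1 probe was detected on control array 2 alone. It was 4.27, 4.41 and 4.28 in knockout hearts, against 4.35, 4.63 and 4.38 in control hearts, with overlapping groups. The fall of Myl1 therefore rests on 1 probe. Both probes are annotated to the same transcript accession, and the sources used here do not say where in the transcript each lies.

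Genes of fast skeletal muscle, of which Myl1 is one by its textbook role, were mostly not detected. Of 13 with a probe, 9 were not detected on any array: Tnnt3, Tnnc2, Actn3, Myh1, Myh4, Pvalb, Atp2a1, Casq1 and Myoz1. The myosin light chain Mylpf, which pairs with Myl1 in fast fibres, was detected on 1 array, at 4.26, 4.35 and 4.41 in knockout hearts and 4.33, 4.59 and 4.57 in control hearts. Of the 3 tested, Tmod4, a tropomodulin, fell by 0.99 ± 0.16 SE (limma adjusted p = 0.00627). It was 8.04, 7.83 and 7.90 in knockout hearts, against 9.21, 8.79 and 8.73 in control hearts, and so separated the groups as Myl1 did. Mybpc2 was 0.62 ± 0.19 SE higher (adjusted p = 0.0987) and Tnni2 had -0.12 ± 0.18 SE, and neither was called. The list median was -0.12, and its summed signal was 349 to 414 in knockout hearts and 533 to 691 in control hearts. Tmod4 made up most of that sum. Without it, a choice made after the values were seen, the sum was 127 to 168 in knockout hearts and 105 to 125 in control hearts. Mybpc2, which was not called, was the brightest gene left in this sum, and most of the others were not detected. The remaining sum therefore does not describe the list as a whole.

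Over the 6 arrays the genes most like Myl1 were Fam229b (r = 0.995), Igdcc4 (0.970), Nelfb (0.965), Phkg1 (0.965), a catalytic subunit of muscle phosphorylase kinase, and Lypd2 (0.964). All of these were low on the 3 knockout arrays and high on the 3 control arrays. Correlations of this size describe a split of 6 arrays into groups, and 9 of the 702 genes compared had one above 0.95. For Myl4 the most similar genes were Sv2a (0.979), Dct (0.920), Nkapd1 (0.881), Gal3st2 (0.874) and Snx30 (0.865), each with its highest value on knockout array 1. For Myl7, compared with 703 genes, they were Myl4 (0.990), Sv2a (0.969), Nkapd1 (0.918), Gal3st2 (0.906) and Dct (0.883). Because Myl7 was detected on knockout array 1 alone, its correlations rest on that array. Those of Myl4 rest on the same array, where alone Myl4 stood out. Neither set of correlations is read as likeness.

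The window before the listed start of Myl1 is shown because this was the 1 member called. It spans chr1:66945057-66945306 on the minus strand (RefSeq, GRCm38.p6, 5′ to 3′), with capitals for the same motifs. The gene is known to use more than 1 start, and the window belongs to the listed one. This window lies inside the annotated span of the gene, which on the minus strand begins at chr1:66947932. It does not stand for a start further upstream.
Myl1: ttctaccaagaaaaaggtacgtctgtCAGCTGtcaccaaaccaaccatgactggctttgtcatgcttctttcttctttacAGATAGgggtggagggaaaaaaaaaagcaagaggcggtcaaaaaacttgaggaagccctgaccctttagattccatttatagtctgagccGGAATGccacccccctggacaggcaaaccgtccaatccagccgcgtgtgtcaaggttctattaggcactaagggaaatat
From 5′ to 3′ it held an E box, a GATA match and an M-CAT match on the reverse strand, with no overlap between them.

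Mylk3, the cardiac myosin light chain kinase, had 3 probes that were tested, and none was called. The brightest was 7.40, 7.64 and 7.83 in knockout hearts, against 6.91, 7.59 and 7.26 in control hearts. Its groups overlapped at control array 2, and the difference was 0.37 ± 0.19 SE (limma adjusted p = 0.308). The next probe was 6.11, 6.48 and 6.80 in knockout hearts, against 6.19, 5.86 and 5.69 in control hearts. It overlapped only in that control array 1 lay above knockout array 1, with a difference of 0.55 ± 0.19 SE (limma adjusted p = 0.142, unadjusted p = 0.0153). The third was near the detection limit, detected on 1 knockout and 3 control arrays, at 4.60, 4.85 and 4.56 in knockout hearts and 4.70, 4.56 and 4.64 in control hearts (0.03 ± 0.14 SE, limma adjusted p = 0.923). All 3 differences were positive, and that of the dimmest probe was the nearest to 0.

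**Figure D4:**
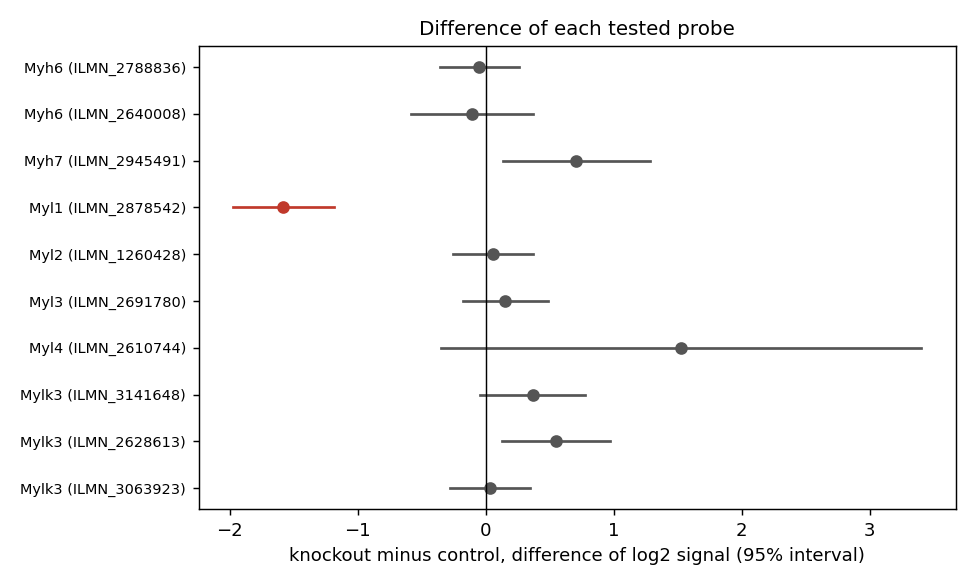
Knockout minus control difference of log2 signal (horizontal axis) for the 10 tested probes, with points at the estimate and lines over the 95% interval of the limma fit, unadjusted for the number of probes. Red marks an adjusted p below 0.05 over all 10407 probes, which Myl1 alone reached among these probes, and the long line of Myl4 reflects knockout array 1.

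Genes that act on or beside these chains were mostly not called, like most genes on the array. Of all 7579 genes tested 3.87% were called, so few calls in a short list are not a result about it. Of 6 other myosin chain genes tested, 0 were called by limma (median -0.0087), and 1 had an unadjusted p below 0.05, the non-muscle heavy chain gene Myh9 at -0.68 ± 0.25 SE (unadjusted p = 0.0209, adjusted p = 0.168). The second smallest p was that of Myl6, a light chain of smooth and non-muscle myosin, at 0.10 ± 0.14 SE (adjusted p = 0.746). The skeletal heavy chain genes Myh1, Myh4 and Myh8 and the light chain genes Myl6b and Myl10 were not detected on any array. Of 9 genes tested for phosphorylation, binding and folding of myosin, Calm2, a calmodulin gene, fell by 0.80 ± 0.19 SE (limma adjusted p = 0.0375), and the list median was 0.05.

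Of 13 tested regulators of myosin genes, 0 were called by limma and 0 had an unadjusted p below 0.05, with a median of 0.08. With 3.87% of all genes called, 0 calls among 13 genes are not a result about this list. The cardiac factor gene Gata6 (0.31 ± 0.14 SE, adjusted p = 0.260) and the immediate early gene Egr1 (0.62 ± 0.30 SE, adjusted p = 0.285) had the smallest p. The thyroid hormone receptor genes Thra and Thrb, which act on Myh6 and Myh7 in opposite directions in rodent heart, were not detected on any array. Lack of detection by a probe does not show that a transcript is absent. Of 5 ventricular markers tested, with a median of -0.22, Irx4, a ventricular homeobox gene, rose by 0.64 ± 0.16 SE (limma adjusted p = 0.0470). Kcnip2, a potassium channel subunit gene, was called at least 1.32-fold lower (limma adjusted p = 0.0476). It was detected on 3 control arrays and 0 knockout arrays. It thus passed the filter only through the group where it was higher, and its call is given as a description.

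Of 9 cardiomyocyte markers tested, 0 were called by limma and 2 had an unadjusted p below 0.05: the troponin I gene Tnni3 at -1.05 ± 0.32 SE (adjusted p = 0.0933) and the actinin gene Actn2 at 0.40 ± 0.13 SE (adjusted p = 0.119). Their median was 0.01. Unadjusted p below 0.05 were common over all tested probes, and 3.87% of all genes were called. Counts of either kind in these short lists are therefore a description and not a result about a cell type. Of 5 smooth muscle genes Acta2 was called, and the summed signal of that list was 2718 to 3970 in knockout hearts and 4143 to 5007 in control hearts (median -0.10). Without Acta2, again chosen after the values were seen, the sum was 1558 to 2188 in knockout hearts and 1734 to 2419 in control hearts, which overlapped. Of 3 adipocyte genes Cidea fell by 0.65 ± 0.16 SE (limma adjusted p = 0.0475; list median 0.07). The 7 fibroblast genes tested had 0 calls by limma and 0 with an unadjusted p below 0.05 (median 0.05), with the smallest p for the matrix genes Lum (0.29 ± 0.17 SE) and Col1a2 (0.29 ± 0.19 SE). The 7 endothelial genes tested likewise had 0 calls and 0 with an unadjusted p below 0.05 (median 0.09), with the smallest p for the receptor gene Tie1 (-0.29 ± 0.19 SE) and the sialomucin gene Emcn (0.13 ± 0.13 SE). Of 4 macrophage genes 0 were called by limma and 1 had an unadjusted p below 0.05, the lysozyme gene Lyz2 at 0.41 ± 0.18 SE (adjusted p = 0.223), ahead of Adgre1 at -0.28 ± 0.17 SE (list median -0.04). Of 2 mesothelial genes 0 were called by limma and 1 had an unadjusted p below 0.05, Upk3b at 0.57 ± 0.16 SE (adjusted p = 0.0786), ahead of Wt1 at 0.03 ± 0.14 SE (list median 0.30). The 3 erythroid genes had 0 calls by limma and 0 with an unadjusted p below 0.05 (median 0.90), led by the globin gene Hba-a1 (1.09 ± 0.56 SE) and the haem synthesis gene Alas2 (0.90 ± 0.52 SE). The 1 lung gene tested, Ager, was not called (-0.09 ± 0.15 SE), and 0 thymocyte genes could be tested.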

How the data were processed

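Heart RNA of 3 knockout and 3 control mice was hybridised to Illumina bead arrays, 1 array per mouse. The authors deposited intensities that were not normalized, with a detection p-value per probe and array, per the file headers, and a value table of normalized intensities whose median differed little between arrays. GenomeStudio is named per the submitters' processing notes. The sources used here name no genome build. Of 25696 probes, 23977 had 1 gene symbol in the platform annotation, 0 had several and 1719 had none.

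Groups follow the sample records, because the headers of the intensity table exchange the group names. Intensities were background-corrected with normexp, quantile-normalized and put on the log2 scale with an offset of 16 (limma 3.58.1, R 4.3.3). Probes with a detection p-value below 0.05 on at least 3 arrays were fitted with lmFit and eBayes over all 10407 such probes, with Benjamini-Hochberg adjustment and calls at 0.05. For lists, the brightest probe stood for a gene. The fit was tested on simulated data. Isoform ratios were compared by exact permutation. The number of arrays limits the precision. Figures were drawn with matplotlib 3.10.9.

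Members and lists were chosen with earlier results of these data known. Named were every member probe, Nelfb, up to 4 called genes of a list or else the 2 with the smallest p, the 5 genes most correlated with Myl4, Myl7, Myh7 and Myl1, and the 8 with the largest excess on knockout arrays 1 and 2. Undetected list genes, and Sln, Mybphl and Myl7 among genes detected on knockout array 1, were singled out after their values were seen. Alternatives were the deposited value table, no background correction, an offset of 50, median scaling, no detection filter, 1 probe per gene, a trended and robust variance prior, a replicate block and leaving out each array.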

Additional observations from a re-analysis of the deposited data

Results flagged for a closer look

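The Myl7 probe stayed outside the fit and yet was detected on 1 array. Its log2 signal on knockout array 1 was 6.06, against 4.32, 4.32 and 4.43 on the control arrays, where it was not detected. Only that knockout heart carried the signal, and the other knockout hearts were at 4.19 and 4.21.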

How the results depend on the processing

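The called member was Myl1 in each of the 14 alternatives, with differences of -1.78 to -1.31 and adjusted p from 4.5e-07 to 0.0245 (limma), and the number of called member probes stayed at 1. Myh7 was not called in any of the 14, at 0.28 to 0.93 (adjusted p 0.101 to 0.440). The count of called probes over the whole array, 395, was 694 without background correction, 732 with the deposited value table, 240 with median scaling, 691 with an offset of 50, 163 without the detection filter and 773 with a variance prior that was trended and robust. Fits on 5 arrays called 131 to 491 probes, with 131 without control array 3, 154 without knockout array 2, 159 without control array 2 and 221 without knockout array 3. The cause was not tested. With the replicate number as a block 299 probes were called, and Myl1 remained the called member. Same-numbered arrays did not deviate together (correlations -0.060, -0.00025 and -0.060), so the numbers were not taken as pairs. Signs that turned were all of uncalled probes. The brighter Myh6 probe was 0.031 with median scaling, and without 1 array it ran from -0.118 to 0.011, its highest value being without control array 2. The dimmer one ran from -0.335 to 0.129, its highest value being without control array 3. Myl2 ran from -0.016, without control array 2, to 0.150. The dimmest Mylk3 probe ran from -0.055, without knockout array 2, to 0.087, and was -0.0026 without control array 2. Without 1 array the difference of the Myl4 to Myl3 ratio ran from -0.09 to 2.14. The Myl4 difference itself ran from 0.07 to 2.31. With 3 arrays a group, exact p cannot go below 0.1. The brighter Myh6 probe, Myl2 and Myl3 lie at the top of the signal range. Myl7, the second Myl1 probe and the dimmest Mylk3 probe lie near background. Small differences of all these probes could therefore not be read.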
